A study of Rattus norvegicus with 50 samples.

Results

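The genes described here are 8 genes of iron transport and storage, measured in the lungs of young rats that had inhaled titanium dioxide nanoparticles. They were taken as all gene spots of the arrays that carried the name Fth1, Ftl1, Tf, Tfrc, Slc40a1, Slc11a1, Slc11a2 or Hamp. These names matched 32 spots for 13 probes, of 58717 gene spots, 30367 probes and 25885 gene names on the array. All 8 genes and all 13 probes passed the filter on low signal. The rats were male F344 rats, an inbred strain, aged 12 weeks when the study began. Exposed rats inhaled an aerosol of TiO2 P25 at 10 mg/m3 through the nose only, for 6 h per day on 5 days per week over 4 weeks, and control rats inhaled air. Lungs of 5 control and 5 exposed rats were taken when exposure ended, called D0, and as many at each of 4 later days, called D3, D28, D90 and D180 for the 3, 28, 90 or 180 days that had passed. Each rat was killed at 1 day only, so the days compare different rats, and older rats with younger ones. Each of the 50 arrays held the RNA of the accessory lobe of 1 rat.

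Iron travels in blood bound to transferrin (Tf), which docks on the transferrin receptor (Tfrc) and is taken into the cell in endosomes. There Slc11a2 (DMT1, divalent metal transporter) passes the iron into the cytosol, while its relative Slc11a1 (Nramp1) does so in the phagosomes of macrophages. Iron that is not used is stored in a shell of ferritin heavy (Fth1) and light (Ftl1) chains. Ferroportin (Slc40a1) is the iron exporter, and the peptide hormone hepcidin (Hamp), made mainly by the liver, causes it to be degraded. Iron regulatory proteins bind hairpins in several of these transcripts and set their stability or translation, so mRNA alone does not give the amount of ferritin protein. In lung, macrophages and epithelial cells handle the iron of inhaled particles and of engulfed red cells.

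The array has 3 probes for Slc11a2, printed here because the size of its change differed between them. By the coordinates in the array files (rat build rn4, minus strand), the first lies at chr7:139099082-139099141 and starts at base 1607 of its transcript model. The second lies at chr7:139094505-139094564 and starts at base 4260 of the same model. The third lies at chr7:139090121-139090180 and starts at base 2039 of another transcript model. The first is given whole, at 60 bases, and the others by their first 30 bases, all without capitals because no part was singled out.
Slc11a2 base 1607: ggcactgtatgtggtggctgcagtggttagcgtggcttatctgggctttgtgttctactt
Slc11a2 base 4260, first bases: tgttagtgagcctctgacagcttgtgaact
Slc11a2 base 2039 of the other model, first bases: tgttagcaaatcccttagttcagaggtgaa
For Tfrc, the brighter probe (chr11:69976628-69976687, minus strand) starts at base 4357 of the transcript. The dimmer probe starts at base 2139, spans chr11:69978846-69980500 across an intron, and was well above background on 33 of 50 arrays.
Tfrc base 2139: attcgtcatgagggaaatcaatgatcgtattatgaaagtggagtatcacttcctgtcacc

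Promoters of Slc11a2, Tfrc and Tf are shown because these genes were higher together at D0 and D3. The RefSeq promoter table for rat build GRCr8 held 6 promoters for 5 of the 8 genes, namely Slc11a2, Tfrc, Tf, Slc40a1 and Hamp. Slc11a2 had 2 promoters, of which 1 is printed and that at chr7:133418940-133419189 is not. The 250 bases before the start site are given, with the letters ACGTG (the core of the hypoxia response element), read on both strands, in capitals. This motif is contained in the E-box CACGTG, which clock and Myc proteins bind, so CACGTG was counted as well.
Tfrc, chr11:81690319-81690568, minus strand: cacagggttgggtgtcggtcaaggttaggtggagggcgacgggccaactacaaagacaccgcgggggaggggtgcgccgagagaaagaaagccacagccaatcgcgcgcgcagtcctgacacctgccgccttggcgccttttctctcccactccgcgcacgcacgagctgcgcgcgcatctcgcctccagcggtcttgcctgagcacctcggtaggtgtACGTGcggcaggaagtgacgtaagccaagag
Slc11a2, chr7:133417789-133418038, minus strand: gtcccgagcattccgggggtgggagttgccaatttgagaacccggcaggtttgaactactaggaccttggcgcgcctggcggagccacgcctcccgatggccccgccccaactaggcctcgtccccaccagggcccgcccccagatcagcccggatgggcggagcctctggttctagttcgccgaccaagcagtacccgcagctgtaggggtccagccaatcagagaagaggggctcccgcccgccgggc
Tf, chr8:112695377-112695626, minus strand: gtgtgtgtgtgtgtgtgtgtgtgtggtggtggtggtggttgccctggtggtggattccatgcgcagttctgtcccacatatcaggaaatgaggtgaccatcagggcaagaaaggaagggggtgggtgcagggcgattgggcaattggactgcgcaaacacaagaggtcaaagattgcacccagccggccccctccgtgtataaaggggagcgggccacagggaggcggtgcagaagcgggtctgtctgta
Of the 6 promoters, Tfrc alone held the letters ACGTG, once, starting 31 bases before the start site. In the same window, 16.6% of 33469 rat promoters held them. None of the 6 held CACGTG, which 5.59% of the promoters did, or the antioxidant response core TGACNNNGC, which 10.1% did. A match is a string of letters and not a shown binding site, and a missing match says nothing about the factor.

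Gene values below are log2 signals after quantile normalization of the arrays, and a difference of 1 is a doubling. Summed signals of marker lists are instead on the linear scale, so they follow the brightest genes of a list. Signals of different probes do not rank the levels of their genes, so levels were compared between rats and not between genes. The log2 ratios of Slc11a2 probes were likewise compared between exposed and control rats. Genes were called differentially expressed (DEGs) at a change of at least 1.5-fold with an adjusted p under 0.05 by limma. All 8 genes were well above background on all 50 arrays by the probe used for the gene, and no spot of their probes was saturated. The median signal of an array was 198 to 473, and 68.7% to 84.5% of the spots were well above background. The arrays came from 7 slides. D0, D3 and D28 lay on slides 1 to 4, and D90 and D180 on slides 5 to 7, except for exposed replicate 1 at D3, which lay on slide 7. All 8 markers of lung epithelium, among them the surfactant genes Sftpc and Sftpb, were well above background on every array, as the labelled tissue requires. Of 8 markers of liver cells, Ahsg, Cyp2e1 and Serpina1 were well above background on all 50 arrays, Ttr on 36, Apoa1 and Apoa2 on 27 each, Alb on 2 and Cps1 on 1.

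At D0, Slc11a2 and Tf were over-expressed in the exposed rats, 2.08-fold and 1.70-fold, and Tfrc was 1.40-fold higher, which passed the adjusted p but not the fold limit. At D3 the same 3 genes were 1.63-fold, 1.57-fold and 1.33-fold higher. Called were thus 2 of the 8 genes at each of these days, both upward, where the share of all genes called was 4.28% at D0 and 3.48% at D3, and of all genes called upward 2.77% and 1.98%. By the adjusted p alone, 3 of the 8 passed at each day, against 13.5% and 10.4% of all genes. The 8 genes were chosen with earlier results of these data known, so these shares are not a test of the set. In RNA of a whole lobe, more RNA per cell and more cells of a type cannot be told apart. The median difference of the 8 genes was 0.15 at D0 and 0.09 at D3, and that of all genes −0.01 at both days. All 8 were higher in exposed rats at D0 and 7 of 8 at D3, most of them by amounts that did not pass the test. Of all genes, 48.3% and 48.7% were higher in exposed rats at these days. The sign was not settled for Fth1 at D0, which turned when its probes were averaged, or for Ftl1 at D3, which turned under 75th percentile scaling and the normexp correction. Without 1 array, Slc40a1 at D0 ran from −0.05 to 0.10, Hamp at D3 from −0.06 to 0.18, Fth1 at D0 from −0.01 to 0.06 and Ftl1 at D3 from −0.02 to 0.05.

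**Figure D1:**
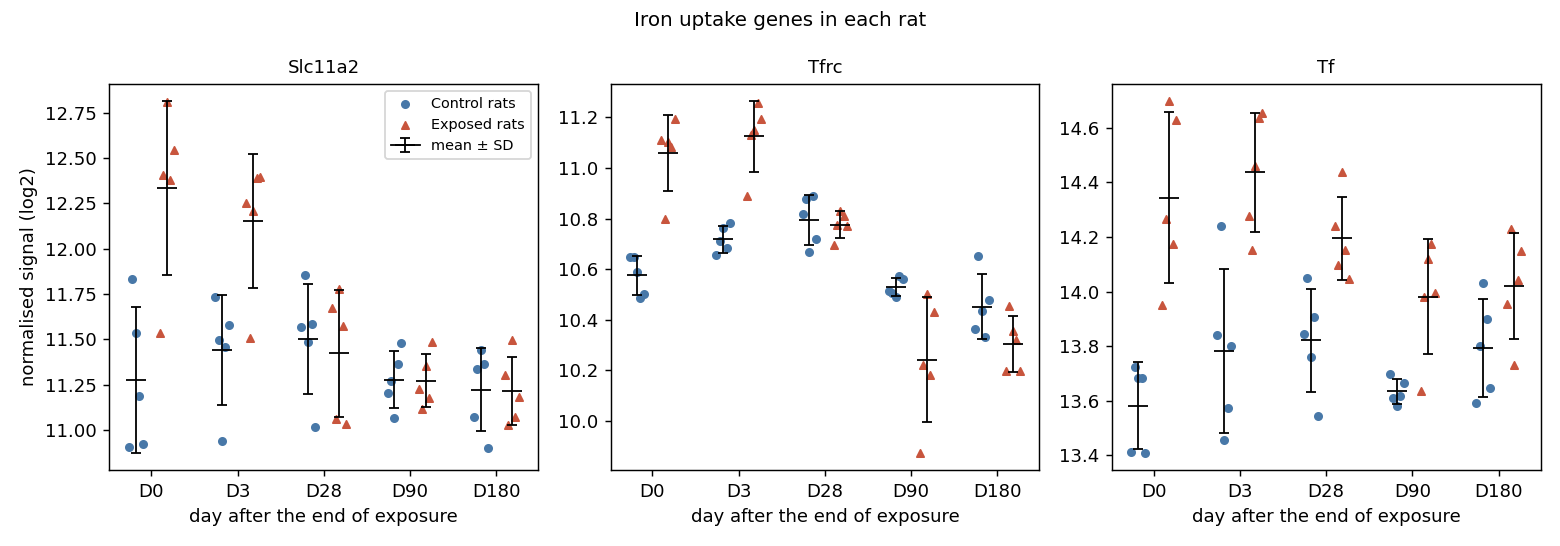
Normalised log2 signal of Slc11a2, Tfrc and Tf in each of the 50 rats by day after the end of exposure, with control rats as circles, exposed rats as triangles, and bars for the mean ± SD of 5 rats. At D0 the mean of the exposed rats is 12.33 against 11.28 for Slc11a2, 11.06 against 10.57 for Tfrc and 14.34 against 13.58 for Tf, and the scales differ between panels.

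Slc11a2, the endosomal iron importer, was measured with its brightest probe, that at base 4260. At D0 the exposed rats had 11.54, 12.41, 12.81, 12.38 and 12.54, and the control rats 10.90, 11.83, 11.53, 11.19 and 10.92. Exposed replicates 2 to 5 lay above every control rat, and exposed replicate 1 lay within the control range. The difference was 1.06 ± 0.19 (SE, n = 5 and 5; adjusted p = 8.3e-05, limma). At D3 the exposed rats had 12.25, 11.51, 12.21, 12.39 and 12.40, and the control rats 11.73, 11.50, 10.94, 11.46 and 11.58. Again 4 of 5 exposed rats lay above all control rats, with replicate 2 within the control range. The difference was 0.71 ± 0.19 (SE; adjusted p = 0.011, limma), and it was no longer called without control replicate 3 of D3 (0.58, adjusted p = 0.050). From D28 on the groups overlapped and were not called, with means at D28 of 11.42 in exposed and 11.50 in control rats, means at D90 of 11.27 and 11.28, and means at D180 of 11.21 and 11.22. The fall of the exposure effect from D0 was itself called, by −1.14 ± 0.27 at D28 (adjusted p = 0.011), −1.06 at D90 (adjusted p = 0.015) and −1.07 at D180 (adjusted p = 0.014, limma interaction). None of these 3 calls held with only the arrays of the days compared in the fit, when the adjusted p were 0.15, 0.054 and 0.067. With a mean over the probes of the gene the changes were −0.52, −0.50 and −0.51, under the fold limit. The control rats of D28 and D0 differed by 0.23 (adjusted p = 0.60).

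The level of Slc11a2 also went with the slide an array lay on. Slide accounted for 80.1% of the variance of this probe within groups. Slide 4 was low in both groups, and the 2 exposed rats inside the control range, replicate 1 at D0 and replicate 2 at D3, were both on it. Within slides, the exposed rats were higher on all 4 slides that held both groups at D0, by 0.62 to 1.20, and on all 4 at D3, by 0.57 to 0.86. With slide as a block the difference was 0.95 (adjusted p = 8.4e-10) at D0 and 0.74 (adjusted p = 7.7e-07) at D3, and both calls remained, where 5.58% and 4.02% of all genes were called with that block.

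**Figure D2:**
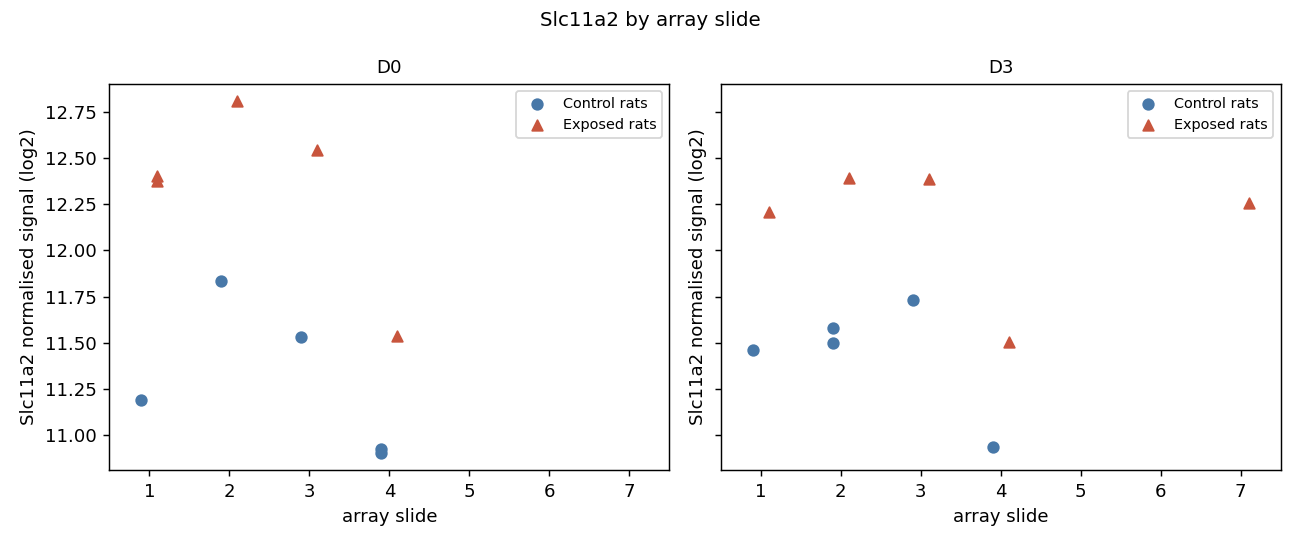
Normalised log2 signal of Slc11a2 on each array slide at D0 and D3, with 1 point per rat, control rats as circles and exposed rats as triangles. On each of slides 1 to 4 the exposed rats lie above the control rats, and slide 4 is the lowest for both groups; the exposed rat on slide 7 at D3 has no control rat of that day on its slide.

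The 3 Slc11a2 probes, whose sequences are printed above, all pointed upward at D0 and D3 but differed in size. The probe at base 1607 read 10.46, 10.61, 10.48, 10.68 and 10.45 in the exposed rats at D0 and 10.28, 10.27, 10.27, 10.30 and 10.26 in the control rats. The groups did not overlap, and the difference was 0.26 ± 0.06 (SE; adjusted p = 0.0022 over all probes, limma). At D3 it was again 0.26 (adjusted p = 0.0031), and the groups again did not overlap. Of all genes, each by its brightest probe, 8.53% had no overlap at D0 and 6.79% at D3. The probe of the other transcript model gave 0.21 (adjusted p = 0.078) at D0 and 0.26 (adjusted p = 0.032) at D3. Neither passed the fold limit, against 4.18% of all probes called at D0 and 3.44% at D3. The log2 ratio of the base 4260 probe to the base 1607 probe was 0.79 higher in exposed than in control rats at D0 (exact permutation test, two-sided p = 0.032). Against the probe of the other model it was 0.85 higher (exact p = 0.016). Both exact p were 0.16 after adjustment over the 20 probe ratios and days compared, and these ratios were chosen after the probe values had been seen. The exact test leaves the slide out of account. Within slides, the difference between exposed and control rats was larger by the base 4260 probe than by the base 1607 probe on 4 of 4 slides at D0, by 0.43 to 0.85, and on 4 of 4 at D3, by 0.30 to 0.56. The fold of Slc11a2 thus depends on the probe. Averaged over its probes, Slc11a2 was 0.51 higher at D0 and 0.41 at D3 and was not called.

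**Figure D3:**
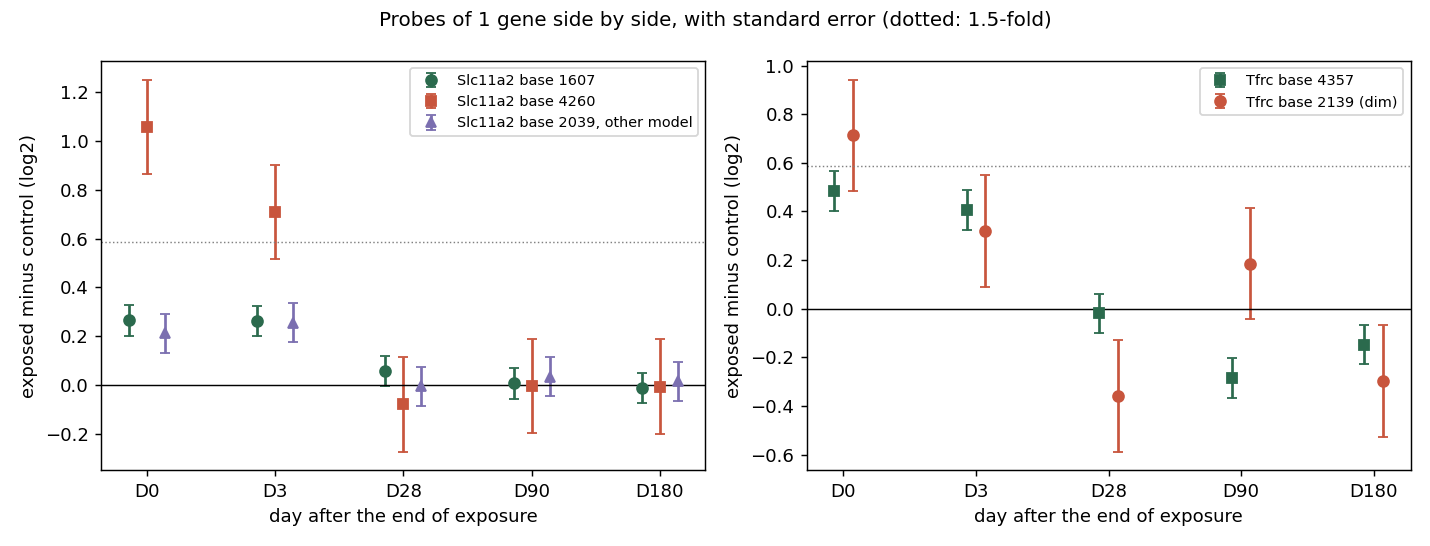
Exposed minus control difference, log2 with standard error from limma, of the 3 Slc11a2 probes (left) and the 2 Tfrc probes (right) at each day, the dotted line marking 1.5-fold. At D0 the Slc11a2 probes gave 0.26, 1.06 and 0.21, and from D28 on all 3 lay near 0; the dim Tfrc probe has the wider bars.

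Tfrc, the receptor that brings transferrin into the cell, moved less but with little scatter. At D0 the exposed rats had 11.11, 10.80, 11.10, 11.08 and 11.20, and the control rats 10.65, 10.65, 10.59, 10.49 and 10.50. Every exposed rat lay above every control rat, as 8.53% of all genes did in either direction. The difference was 0.48 ± 0.08 (SE; adjusted p = 1.9e-05, limma). At D3 the exposed rats had 10.89, 11.13, 11.15, 11.26 and 11.19, against 10.65, 10.71, 10.76, 10.68 and 10.78, again without overlap, as in 6.79% of all genes. The difference was 0.41 ± 0.08 (SE; adjusted p = 0.00036). Later the sign turned, without passing the test. At D28 the difference was −0.02 (adjusted p = 0.93), and at D90 it was −0.29 ± 0.08 (SE; adjusted p = 0.081; with slide as a block, 0.021). At D90 the exposed rats had 9.87, 10.22, 10.50, 10.18 and 10.43, and the control rats 10.51, 10.50, 10.49, 10.57 and 10.56, so that 4 of 5 exposed rats lay below all control rats. At D180 the difference was −0.15 (adjusted p = 0.73), with 3 of 5 exposed rats below all control rats.

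The exposure effect on Tfrc was lower at D90 than at D0 by −0.77 ± 0.11 (SE; adjusted p = 6.9e-06, limma interaction) and at D180 by −0.63 (adjusted p = 0.00022), both called. The call at D180 was lost without control replicate 2 of D180, when Slc11a2 remained as the single gene called. At D28 the interaction was −0.50 (adjusted p = 0.0063), under the fold limit. Called for a change of the exposure effect since D0 were 0 of the 8 genes at D3 (0.678% of all genes), 1 at D28 (1.61%), and 2 each at D90 (2.17%) and D180 (2.24%), namely Slc11a2 and Tfrc. For the count of 0 at D3, none of the 8 had an unadjusted p under 0.05 by limma, as 9.84% of all genes did. The dim Tfrc probe gave 0.71 (adjusted p = 0.031) at D0, 0.32 (adjusted p = 0.47) at D3 and 0.19 (adjusted p = 1.00) at D90, the last against the sign of the brighter probe.

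Tf, the iron carrier of plasma, differed upward at all 5 days and was called at D0 and D3. At D0 the exposed rats had 13.95, 14.27, 14.70, 14.17 and 14.63, and the control rats 13.41, 13.72, 13.68, 13.68 and 13.41, without overlap, as in 8.53% of all genes. The difference was 0.76 ± 0.13 (SE; adjusted p = 3.3e-05, limma). At D3 the exposed rats had 14.28, 14.15, 14.46, 14.64 and 14.65, and the control rats 13.84, 14.24, 13.46, 13.57 and 13.80, with 4 of 5 above all control rats. The difference was 0.65 ± 0.13 (SE; adjusted p = 0.00042), and it fell under the fold limit without control replicate 3 of D3 (0.57). With only the 10 arrays of D3 in the fit, neither Tf (adjusted p = 0.059) nor Slc11a2 (adjusted p = 0.098) passed at that day. At the later days Tf was not called, and its difference was 0.37 ± 0.13 (SE; adjusted p = 0.11) at D28. It was 0.35 at D90 (adjusted p = 0.35) and 0.23 at D180 (adjusted p = 0.77). With slide as a block the adjusted p at these 3 days was 0.00036, 0.014 and 0.12, for changes of 0.47, 0.35 and 0.25. Within slides the exposed rats were higher on every slide that held both groups, 4 of 4 at D0 and D3 and 3 of 3 at D28, D90 and D180. The exposure effect on Tf at D180 differed from that at D0 by −0.54 (adjusted p = 0.11; with slide as a block, 0.0071).

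**Figure D4:**
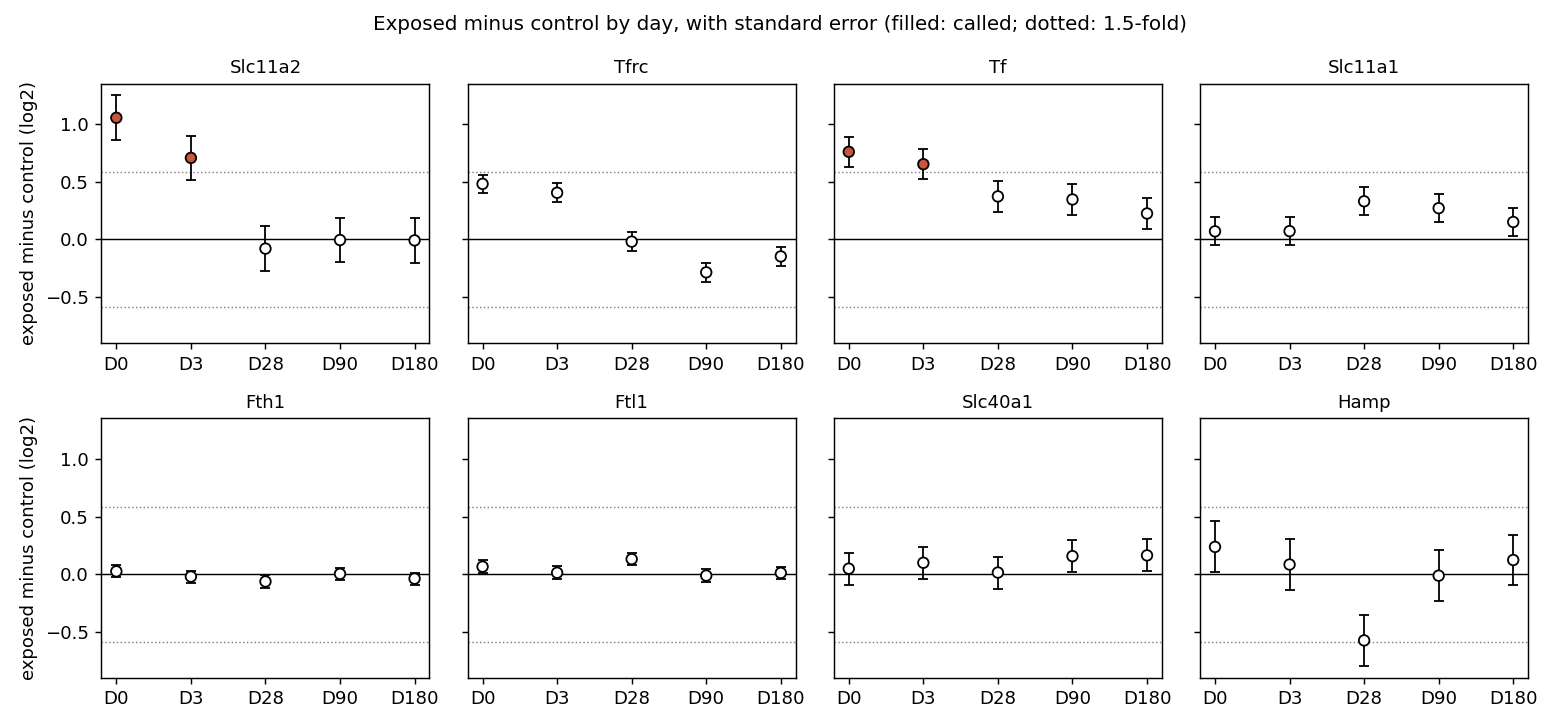
Exposed minus control difference of each of the 8 genes at each day (log2, mean of 5 rats against 5, bars for the standard error from limma), with filled points for called differences and dotted lines at 1.5-fold. Slc11a2 and Tf are called at D0 and D3, and no gene is called at D28, D90 or D180.

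Markers of cell types and of the clock were counted as well. Of all genes, 2.77% were called higher at D0 and 1.98% at D3. In either direction, 4.28%, 3.48%, 1.33%, 0.381% and 0.325% of all genes were called from D0 to D180. At D0, 7 of 10 markers of proliferating cells were called higher, with a median difference of 1.45, and their summed signal was 11184 to 12677 in exposed rats and 5591 to 7164 in control rats. At D3, 3 of 10 were higher, with sums of 12394 to 15217 and 9926 to 11760. Tfrc is known to be abundant in dividing cells. Of 10 neutrophil markers, 3 were higher at D0 and D3 (S100a8, S100a9 and Cd177), with a summed signal of 109727 to 150719 against 34996 to 50806 at D0, while Elane was well above background on 2 arrays. Of 13 macrophage markers, 1 was higher at D0 (Ctsk) and 1 at D3 (Siglec1), with sums of 123552 to 183578 in exposed and 97955 to 132168 in control rats at D0. Clock genes differed too, with 6 of 10 lower and 1 higher at D0, 6 lower and 2 higher at D3, 6 higher and 3 lower at D28, 6 higher and 2 lower at D90, and 5 higher and 2 lower at D180. Their summed signal was 19276 to 25399 in exposed against 53334 to 67175 in control rats at D0, 21467 to 41020 against 9750 to 10811 at D90, and 21345 to 33478 against 9963 to 11337 at D180. The labels do not give the time of day at which the rats were killed. The part of these cells, or of the clock, in the values of Tfrc, Slc11a2 and Tf was not tested.

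Neither ferritin chain was called at any day. Fth1, the ferritin chain that oxidises iron, ranged in group means from 18.06 in the control rats of D0 to 18.16 in those of D28. Its exposed minus control difference was between −0.06 at D28 and 0.03 at D0, with a standard error of 0.05 and an adjusted p of at least 0.59. Its second probe gave −0.06 to 0.04. Ftl1, the chain that helps form the iron core, had its widest difference at D28, where the exposed rats had 18.15, 18.38, 18.20, 18.33 and 18.38 and the control rats 18.15, 18.15, 18.13, 18.09 and 18.25. There 3 of 5 exposed rats lay above all control rats, and the difference of 0.13 ± 0.05 (SE) did not pass (adjusted p = 0.19, limma; exact p = 0.048). Slide accounted for 65.6% of the variance of Ftl1 within groups. Slide 4 held exposed replicates 2 and 5 of D28 (18.38 each) and the highest control rat of that day (18.25). Within slides the exposed rats were higher at D28 on 3 of 3 slides that held both groups, by 0.05 to 0.20. At the other days Ftl1 differed by −0.01 to 0.07. Other processing moved these values. At D0 Ftl1 was 0.19 higher after the normexp correction (adjusted p = 0.027, under the fold limit) and 0.18 higher after 75th percentile scaling (adjusted p = 0.28), and at D90 the latter gave −0.17 (adjusted p = 0.91). For Fth1 the normexp correction gave 0.13 at D0 (adjusted p = 0.22), and 75th percentile scaling −0.11 at D90 (adjusted p = 1.00). The probes of both chains gave some of the highest signals of every array, at ranks 12 to 40 of 30367. The ranks describe the signal and not the amount of mRNA. At these ranks quantile normalization leaves few distinct values, so small differences are coarse, and whether related ferritin sequences share these probes was not checked.

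**Figure D5:**
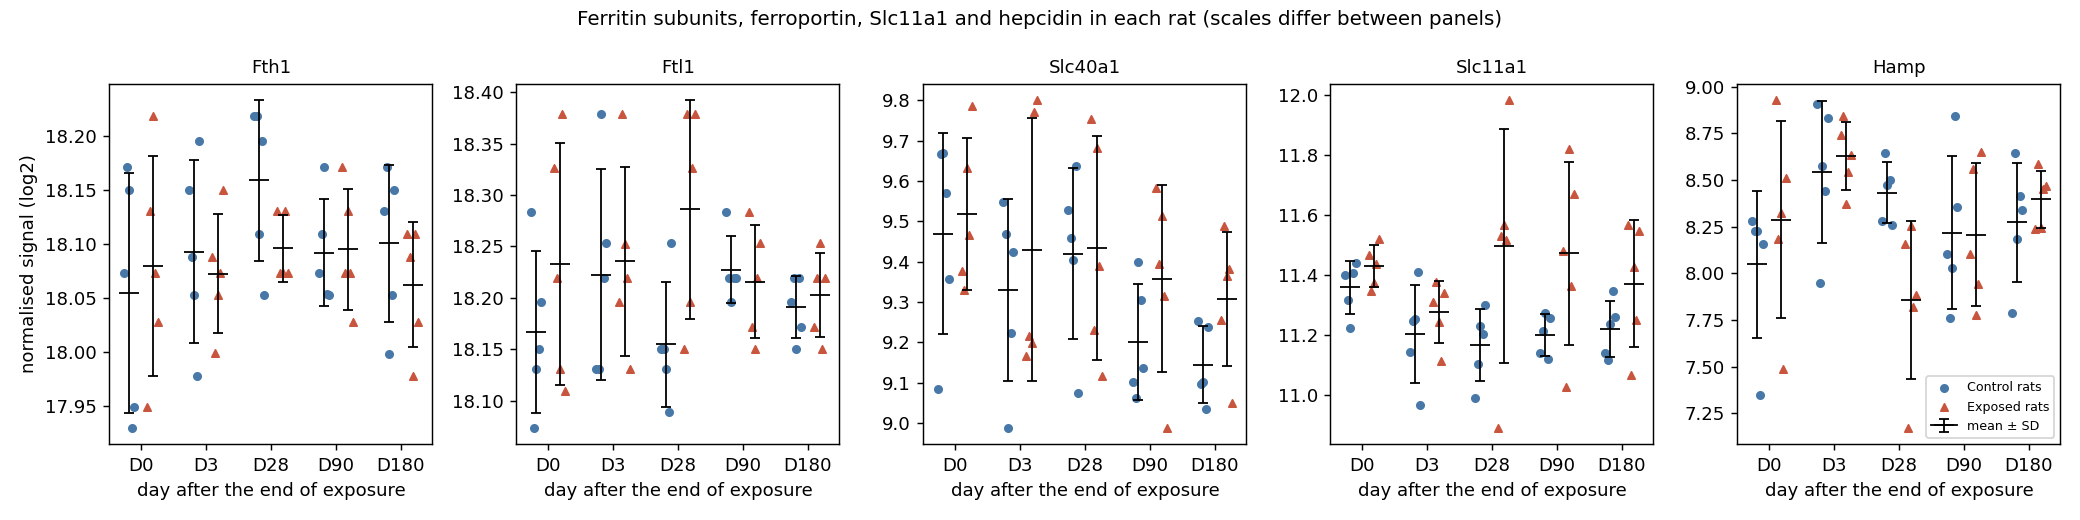
Normalised log2 signal of Fth1, Ftl1, Slc40a1, Slc11a1 and Hamp in each rat by day, with control rats as circles, exposed rats as triangles, and bars for the mean ± SD of 5 rats; each panel has its own scale. The groups overlap in every panel and day except Hamp at D28, where the exposed rats run from 7.17 to 8.26 and the control rats from 8.26 to 8.65.

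Ferroportin, the exporter encoded by Slc40a1, was not called at any day. Its group means lay between 9.14 in the control rats of D180 and 9.52 in the exposed rats of D0. The 5 differences from D0 to D180 were 0.05, 0.10, 0.01, 0.16 and 0.16, each with a standard error of 0.14. At D180 the exposed rats had 9.26, 9.49, 9.37, 9.38 and 9.05 and the control rats 9.25, 9.10, 9.10, 9.04 and 9.24, so that 4 of 5 exposed rats lay above all control rats (adjusted p = 0.98; exact p = 0.095). Its second probe gave 0.29 at D180 (adjusted p = 0.39). Slide accounted for 79.0% of the variance of Slc40a1 within groups.

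Slc11a1, the transporter of macrophage phagosomes, differed by 0.07 at D0 and at D3 (adjusted p = 0.85 and 0.79). At D28 the exposed rats had 10.89, 11.53, 11.57, 11.52 and 11.98, and the control rats 10.99, 11.10, 11.23, 11.20 and 11.30. Exposed replicates 2 to 5 lay above all control rats and replicate 1 below all of them. The difference of 0.33 ± 0.12 (SE) did not pass (adjusted p = 0.13, limma). Without replicate 1 of the exposed rats it was 0.48 with an adjusted p of 0.0041, still under the fold limit, and over the other arrays left out 1 at a time it went as low as 0.21 (adjusted p = 0.49). At D90 the pattern was the same, with 4 exposed rats above and 1 below all control rats (0.27, adjusted p = 0.57), and at D180 the difference was 0.15 (adjusted p = 0.96). The exposed rats were more scattered than the control rats at D28, with an SD of 0.39 against 0.12, and at D90, with 0.30 against 0.07; the difference in spread was not tested.

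Hepcidin (Hamp), the hormone that lowers ferroportin, had 1 probe with 10 spots and the widest scatter of the 8 genes, with a median SD within groups of 0.38. At D28 the exposed rats had 8.16, 7.17, 8.26, 7.82 and 7.88, and the control rats 8.28, 8.65, 8.48, 8.50 and 8.26. Every exposed rat lay below every control rat, as 3.80% of all genes did in either direction, and the closest pair of rats differed only beyond the second decimal. The difference of −0.58 ± 0.22 (SE) did not pass (adjusted p = 0.15, limma; with slide as a block, 0.061; exact p = 0.0079, the smallest that 5 against 5 rats allow). At the other days it was 0.24, 0.08, −0.01 and 0.12 at D0, D3, D90 and D180, with adjusted p of at least 0.63. The summed signal of 9 markers of heart muscle, which also expresses Hamp, was 27832 to 38371 in the exposed rats at D28 and 39818 to 54403 in the control rats. None of the 9 was called, their median difference was −0.32, and Nppa was well above background on no array. At the other days these sums overlapped between the groups, and the part of heart muscle in the Hamp values was not tested.

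Called among the 8 genes were thus 0 at each of D28, D90 and D180, where 1.33%, 0.381% and 0.325% of all genes were called. At an unadjusted p under 0.05 by limma there were 4 at D28 (Ftl1, Tf, Slc11a1 and Hamp), where 16.6% of all genes reached it, 3 at D90 (Tf, Tfrc and Slc11a1; 7.11% of all genes) and 0 at D180 (8.05%). By the exact permutation test there were 3, 2 and 0, where 12.2%, 11.5% and 12.3% of all genes had an exact p under 0.05. Between control rats of different days, 0 of the 8 genes were called, for D3 against D0 (2.33% of all genes), D28 against D3 (0.639%), D28 against D0 (2.49%) and D180 against D90 (0.0198%). At an unadjusted p under 0.05 by limma there were 1, 0, 1 and 0, namely Hamp and Tfrc, where 17.8%, 8.28%, 18.8% and 4.83% of all genes reached it. By the exact test there were 1, 0, 3 and 0, against 14.1%, 6.79%, 13.9% and 8.2% of all genes. The differences between control rats ran from −0.19 to 0.49 over the 8 genes and these 4 comparisons.

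Other genes of iron handling came from 7 lists with 81 genes tested. Of these, 6, 6, 2, 0 and 0 were called from D0 to D180. The called shares of all genes were 4.28%, 3.48%, 1.33%, 0.381% and 0.325% in the same order. At an unadjusted p under 0.05 there were 30, 22, 20, 13 and 10, where 23.4%, 21.8%, 16.6%, 7.11% and 8.05% of all genes reached it. Of 16 genes of uptake and of carriers, 2 were higher and 1 lower at D0 and D3, and 2 were higher at D28; the median difference was 0.10, −0.03 and −0.08. Haptoglobin (Hp), which binds free haemoglobin, was higher by 1.58 ± 0.08 at D0 (SE; adjusted p = 5.1e-19, limma), 1.30 at D3 and 0.95 at D28. At D90 and D180 Hp was 0.53 and 0.51 higher, under the fold limit, and at each of the 5 days every exposed rat lay above every control rat. In either direction, 8.53%, 6.79% and 3.80% of all genes had no overlap at D0, D3 and D28. The share was not worked out for D90 and D180. Hemopexin (Hpx), which binds free haem, was higher by 0.96 at D0, 1.58 at D3 and 0.72 at D28, and not called at D90 (0.18) and D180 (0.24). Cubn, a receptor through which epithelia take up transferrin, fell by 0.72 at D0 (adjusted p = 0.00068), and Steap2, a metalloreductase, fell by 0.63 at D3 (adjusted p = 3.5e-08).

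Of 7 genes of storage and sequestration, 1 was called at D0 and D3. Lipocalin 2 (Lcn2), which withholds iron by binding the siderophores of bacteria, was higher by 3.22 ± 0.21 at D0 (SE; adjusted p = 8.0e-16) and 2.45 at D3 (adjusted p = 4.7e-12). Lcn2 is also a neutrophil product, and the part of neutrophils in its values was not tested. At D28 it was 0.60 higher (adjusted p = 0.10). Of 21 genes that control hepcidin, 1 was called higher and 1 lower at D0 and at D3, with median differences of −0.14 and −0.21. At D0 Atoh8, a transcription factor that raises Hamp, fell by 0.65 (adjusted p = 0.00027). Il6, the cytokine that induces hepcidin in inflammation, was the gene called higher, but it was well above background on none of the 10 arrays of D0, so no fold is given. At D3 Socs3, a feedback inhibitor of cytokine signalling, was 0.73 higher (adjusted p = 0.0030), and Acvr1, a BMP receptor, fell by 0.61 (adjusted p = 0.0092; with slide as a block the change was −0.41, under the fold limit). The lists of iron oxidation and export (3 genes, among them Cp and Heph), iron regulatory proteins (4), haem metabolism (18) and mitochondrial iron (12) had no gene called at any of the 5 days. At D0, unadjusted p under 0.05 by limma were reached there by 1, 1, 6 and 1 genes. From D3 to D180, the haem list had 2, 8, 7 and 3 of its 18 genes under this limit. The shares of all genes under it were 21.8%, 16.6%, 7.11% and 8.05% in the same order. For oxidation and export the later counts were 1, 1, 0 and 0. For regulatory proteins they were 1, 2, 1 and 2, and for mitochondrial iron 1, 0, 0 and 0.

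For each of the 8 genes, the 3 genes with the most similar pattern were found by Pearson's r over the 50 arrays, after the mean of that day's control rats had been subtracted, among 17357 genes. These arrays share slides and groups, so r is a description. Slc11a2 was most like Gcs1 (r = 0.93), Tlr2 (0.90) and Rassf4 (0.89). Tf was most like Klk13 (0.92), Apobec1 (0.90) and Ebi3 (0.89). The pattern of Tfrc was closest to Slc7a1 (0.87), an amino acid transporter, Gch1 (0.86) and Tmem56 (0.85). Slc40a1 was closest to Lrp2 (0.87), Cdc42se2 (0.86) and Rnf139 (0.85). Hamp went with Sln (0.78), Actc1 (0.75) and Pln (0.73), which encode sarcolipin, cardiac actin and phospholamban. The nearest genes to Slc11a1 were Wdr81 (0.78), Rmnd5b (0.77) and Myo1f (0.76), to Ftl1 Scand1 (0.80), Lamtor4 (0.79) and Mrps15 (0.79), and to Fth1 Pkib, Ppard and Smad1 (0.68 to 0.70). Among the 8 genes, r was 0.76 for Slc11a2 with Tf, 0.68 for Slc11a2 with Tfrc and 0.56 for Tf with Tfrc. Within groups and slides these were 0.03, 0.20 and 0.32.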

How the data were processed

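RNA from the accessory lobe of 50 rats was hybridised to one-colour Agilent arrays, and groups came from the sample labels. Per the file headers, the deposited array files hold spot intensity on a linear scale from Agilent Feature Extraction 11.0.1.1. The authors also deposited a matrix of intensity values for 58753 spots, already quantile normalized. The members and lists were chosen with earlier results of these data known.

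Here, spots marked as not uniform or outliers were dropped, log2 values of the processed signal were averaged per probe and quantile normalized, and probes above the 95th percentile of 308 negative controls on at least 5 arrays were kept (29549 probes, 25208 genes, the probe with the highest mean per gene). limma 3.58.1 in R 4.3.3 fitted 10 group means, and p-values were Benjamini-Hochberg adjusted over all genes. The code was tested on simulated data. Rats with the same replicate number were treated as unpaired. Of 25 same-numbered pairs 8 correlated over 0.1, which cannot settle the pairing because the slide was not taken out. Other genes were named when called at any day, and 3 genes per member by r. Alternatives covered scaling, background, filter, probe, slide, replicate block and left-out arrays. The precision is limited by the number of arrays.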

Additional observations from a re-analysis of the deposited data

Results flagged for a closer look

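The exposure effect on Slc11a2 differed between days by the limma interaction, by −1.14 at D28, −1.06 at D90 and −1.07 at D180 against D0. For Tfrc it differed by −0.77 at D90 and −0.63 at D180. The Slc11a2 calls, read with its brightest probe, did not hold with a mean over its probes. They were also lost with only the arrays of the days compared in the fit. Slc11a2 was 1.06 higher in exposed rats at D0 and 0.71 higher at D3, and lay within 0.08 of the control rats from D28 on. By its brighter probe, Tfrc went from 0.48 higher at D0 to 0.29 lower at D90, while its dim probe was 0.19 higher at D90.

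A single rat stood apart from the other 4 of its group, by the gap to its nearest neighbour over the whole range, in 4 of the 80 combinations of gene and group, about as many as the 1 in 20 that chance gives. These were Ftl1 in control replicate 1 at D90 (gap 0.735 of the range), Tfrc in exposed replicate 2 at D0 (0.711), Slc11a2 in exposed replicate 2 at D3 (0.789) and Hamp in control replicate 4 at D0 (0.866). Without the Slc11a2 rat the call at D3 remained.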

How the results depend on the processing

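The counts of called members at D0 (2 of 8) were within 1.5 times the reported count under every alternative run, but with a mean over probes the 2 genes were Tf and Tfrc (0.60), and Slc11a2 (0.51) was not called. With a mean over probes the count was 1 at D3, and 1 for the change of the exposure effect at D90 and at D180, in place of 2, because Slc11a2 was no longer called; for the change at D28 it was again 1, with Tfrc in place of Slc11a2. With only the arrays of the days compared, which leaves fewer arrays for the variance, it was 0 at D3, 0 for the change at D28 and 1 at D90 and D180. With no fold limit the change at D28 counted 2, as Tfrc joined. Leaving out 1 array gave 0 to 2 at D3 and 1 to 3 for the change at D180. The replicate block, used although pairing by number was not shown, gave 2 at D0, 2 at D3 and 0 at D28, D90 and D180. For the changes at D28, D90 and D180 it gave 1, 2 and 2, as reported. Counts at D28, D90, D180 and between control days stayed at 0 under every alternative run for them.

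Except for Tfrc at D90, read with its dim probe, the differences whose sign turned were no larger than 0.08 as reported. The mean over probes gave −0.00764 for Fth1 at D0 and 0.011 for Slc11a2 at D90. Scaling to the 75th percentile gave −0.072 for Ftl1 at D3, −0.11 for Fth1 at D90 and 0.000463 for Slc11a2 at D90. The normexp correction gave −0.00217 for Ftl1 at D3, −0.010 for Slc40a1 at D28, −0.00317 for Fth1 at D90 and 0.00299 for Slc11a2 at D180. The matrix values gave 0.018 for Ftl1 at D90 and 0.00777 for Slc11a2 at D180. The slide block gave 0.080 and 0.034 for Slc11a2 at D28 and D180. Single probes, an alternative chosen after seeing the data, gave 0.057 (base 1607) for Slc11a2 at D28, 0.00595 (base 1607) and 0.033 (base 2039) at D90, 0.014 (base 2039) at D180, and 0.19 for Tfrc at D90 (base 2139). Leaving out 1 array gave a range across 0 for Fth1 at D0 (−0.00958 to 0.0579), D3 (−0.0492 to 0.00533) and D90 (−0.016 to 0.0229), Slc40a1 at D0 (−0.0477 to 0.0987) and D28 (−0.0719 to 0.0945), Ftl1 at D3 (−0.0228 to 0.0521), D90 (−0.0288 to 0.00441) and D180 (−0.00108 to 0.0245), Hamp at D3 (−0.0636 to 0.176) and D90 (−0.127 to 0.144), Tfrc at D28 (−0.0506 to 0.00544), Slc11a2 at D28 (−0.201 to 0.0186), D90 (−0.0574 to 0.0459) and D180 (−0.0882 to 0.0462). The causes were not tested. Signal over background limited the dim Tfrc probe and Il6.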
